A study of Homo sapiens with 32 samples.

Results

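Ribosomal protein pseudogenes are copies of the genes that encode the proteins of the ribosome. The members described here were the genes of the deposited table whose symbol is that of a ribosomal protein gene followed by P and a number, whose name contains the word pseudogene, and whose raw counts summed to at least 1000 over all 32 libraries. There were 103 of them among 1346 ribosomal protein pseudogenes and 61541 genes in all. Of the others, 935 had counts below that sum and 308 had no count. The 103 members held 445788 reads, or 78.3% of all reads assigned to ribosomal protein pseudogenes, and traced by symbol to 48 parent genes. The members were thus chosen by their summed count, a measured value, so their being expressed is not a finding. Just inside the threshold were RPS3AP47 (1006 reads), RPS4XP11 (1013) and RPS3AP36 (1014). Just outside it were RPS15AP11 (990), RPL5P4 (939) and RPSAP56 (927).

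The RNA came from 2 established human germ cell cancer lines, NTera2, from an embryonal carcinoma, and TCam-2, from a seminoma. In each line 4 groups were cultured for 48 h with vehicle (D-PBS), RANKL at 1 µg/ml, OPG at 1 µg/ml, or denosumab. RANKL activates RANK on the cell surface, while OPG, a soluble decoy receptor, and denosumab, a therapeutic antibody, both bind RANKL. The protocol lists RANKL a second time where the labels have denosumab, so the dose of denosumab is not given in the sources used here. Each of the 8 groups had 4 libraries, from 4 separate experiments per the labels, so n = 4 in every group. Within a line, libraries with the same replicate number came from the same passage (27, 29, 30 and 31 in NTera2, 118, 120, 121 and 122 in TCam-2). Each line is a single culture model, so a difference between the lines is a difference between these 2 lines and not between tumour types.

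NTera2 libraries held 11385500 to 30499538 counts, and TCam-2 libraries 10585247 to 20257935. RNA integrity numbers were lowest in TCam-2 RANKL replicates 2 (6.1) and 4 (3.7), and NTera2 vehicle replicate 1 had none. The lines matched their labels by markers. SOX2, kept by embryonal carcinoma, was at 219 to 340 CPM (read counts scaled to library size) in NTera2 libraries, against 0.691 to 4.76 CPM in those of TCam-2. SOX17, kept by seminoma, was at 118 to 194 CPM in TCam-2, against at most 0.277 CPM in NTera2. Markers of blood cells were near 0 in both lines, with PTPRC (CD45) at no more than 0.0815 CPM in any library.

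As background, most ribosomal protein pseudogenes are processed pseudogenes. They arose when the messenger RNA of a ribosomal protein gene was reverse transcribed and inserted elsewhere in the genome, so they lack introns and usually a promoter of their own. Ribosomal protein messenger RNA is among the most abundant in growing cells, so a small share of parental reads placed on a copy cannot be neglected beside the reads of the copy itself. Short reads that lie in an identical stretch cannot be assigned to the parent or the copy by sequence alone. How the authors' counting treated reads with several placements, and whether it used the strand, is not given in the sources used here, so each value below is a count of reads assigned to a gene and not a measure of transcription at that locus.

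The following stretches of 90 bases show where reads from a copy can be told from those of the parent. For each pseudogene, the stretch aligned without gaps, lay inside the parent's coding sequence and held the most bases that differ from it. The stretches are from GENCODE v29 transcripts on GRCh38, 5′ to 3′ on the transcript's strand, with the differing bases in capitals. They are shown for RPS14P1 and RPSAP53 because both moved against their parents between the lines. RPS14P1 (chr1:206695859-206695948, minus strand) differed from RPS14 at 10 of 90 bases.
RPS14P1: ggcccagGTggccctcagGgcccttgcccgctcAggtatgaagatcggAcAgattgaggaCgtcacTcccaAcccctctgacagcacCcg
RPS14: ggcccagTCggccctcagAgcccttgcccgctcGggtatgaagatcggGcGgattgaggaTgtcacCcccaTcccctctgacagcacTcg
RPSAP53 (chr13:67266947-67267036, minus strand) differed from RPSA at 9 of 90 bases.
RPSAP53: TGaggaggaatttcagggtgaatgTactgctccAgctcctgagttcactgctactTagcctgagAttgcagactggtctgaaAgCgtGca
RPSA: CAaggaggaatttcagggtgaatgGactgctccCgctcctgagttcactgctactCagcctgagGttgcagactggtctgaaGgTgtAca

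Across the 103 members, the transcript was identical to its parent at a median of 96.9% of aligned bases, with a range from 72.3% (RPL13P8) to 100%. Identity was at least 95% in 77 members and under 90% in 5, among them RPL13P5, RPL32P3, RPS10P15 and RPL23AP49. The reads were 52 bases long, so the share of 52-base windows that also occur in a parent transcript was counted. A window stands for a single read, and the second read of a pair was not considered. The median share was 22.8%. All windows of RPL36AP37 and RPL21P16 occurred in the parent, and none did in RPL13P5, RPL32P3, RPS2P32, RPL37P11 and RPL13P8. The median member had 67.5% of its windows nowhere else in the annotated transcripts, and 10 members had fewer than 20% such windows. RPS2P5 had 20.9% of unique windows, against 88.0% in RPS14P1 and 99.1% in RPL7P20.

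GENCODE classed 94 members as processed pseudogenes, 7 as transcribed processed pseudogenes, RPL32P3 as a transcribed unprocessed pseudogene and RPS27AP5 as protein coding. The longest open reading frame in any frame of the transcript was at least as long as the parent's coding sequence in 31 members. Whether it was the parent's own frame was not tested, and in RPL41P2 it was 55 codons against 25 in RPL41. RPLP0P6, a copy of the gene for the P0 protein of the ribosomal stalk, had 317 codons against 317, and RPSAP12 had 295 against 295. In 40 members the longest frame was under 50% of the parent's. RPS2P5 had 70 codons against 293.

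Reads were unevenly spread over the members. RPS2P5, a copy of the small-subunit gene RPS2 on chromosome 12, alone held 17.2% of the members' reads, and the 10 members with the most reads held 42.1%. Under vehicle, RPS2P5 was at 167, 207.6, 178.8 and 171.7 CPM in NTera2 and at 124.4, 129.2, 136.3 and 184.3 CPM in TCam-2. TCam-2 vehicle replicate 4 stood above the other 3 TCam-2 vehicle libraries and lay within the NTera2 range, so the groups overlapped. The next by mean level over all 32 libraries were RPLP0P6 (47.2 CPM), RPL18AP3 (34.7), RPSAP12 (32.6), RPS15P4 (22.2), RPL4P4 (21.4), RPS27AP16 (19.0), RPL6P27 (18.2), RPS7P1 (17.9) and RPL13P5 (17.3). RPS2P46, RPS2P17, RPL13P12, RPL13AP5 and RPS2P40 followed at 13.1 to 15.9 CPM. The median member was at 5.05 CPM and the lowest at 2.05 CPM. The parents were at 5.95 to 2683 CPM with a median of 832 CPM.

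Set against its parent, the median member had 0.611% of the parent's reads. It had under 1% in 69 members and 5% or more in 9. RPS2P5 had 7.59% of the reads of RPS2 and RPLP0P6 1.76% of those of RPLP0. On the scale of CPM per kilobase of the deposited gene length, the median member stood at 2.46% of its parent. The lowest were RPLP0P2 (0.150%), RPS2P20 (0.309%), RPS2P35 (0.367%), RPL7AP50 (0.446%) and RPS2P7 (0.494%). The deposited length of a parent can exceed that of the transcript it was aligned by. With the lengths of the aligned transcripts instead, an alternative chosen after seeing the data, the median was 0.888%.

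Among the members highest against their parents per length were RPL36AP37 (2464%), RPL22P2 (89.0%), RPL17P39 (67.9%) and RPS10P15 (54.7%). In each of these, the parent itself had few assigned reads, with RPL36A at 5.95 CPM, RPS10 at 32.2, RPL17 at 38.2 and RPL22 at 56.4 CPM, while the median parent was at 832 CPM. RPL36A, RPS10 and RPL17 each share their position and strand with an annotated readthrough gene, RPL36A-HNRNPH2 (0.00325 CPM), RPS10-NUDT3 (0.0166 CPM) and RPL17-C18orf32 (0.0898 CPM). How reads that overlap both genes were counted was not tested, so these ratios describe assigned reads only.

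**Figure D1:**
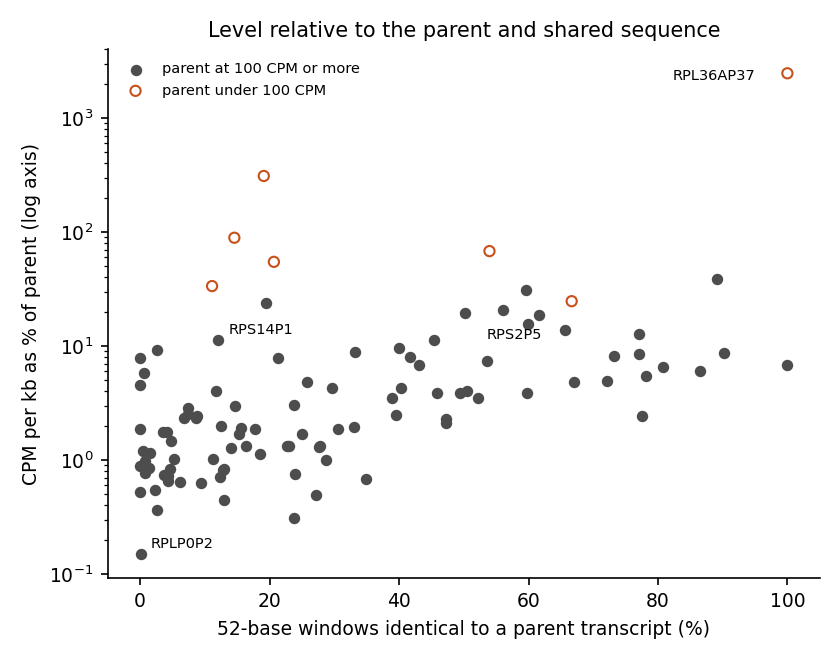
Each point is 1 of the 103 pseudogenes. The horizontal axis is the percentage of its 52-base windows that also occur in a transcript of the parent, and the vertical axis (log scale) is its mean CPM per kilobase as a percentage of the parent's. Open orange circles are the 7 pseudogenes whose parent was under 100 CPM, and filled circles are the others. Points with more shared windows lie higher, and RPL36AP37 (100% of windows, 2464%) lies highest.

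Members that share more sequence with the parent had more reads relative to it. Over the 103 members, Spearman's rho between the share of identical windows and the per-length level relative to the parent was 0.572, and Pearson's r with the log2 level was 0.545. This is a description across genes that share libraries, parents and alignment settings. In the 25 members with 50% or more identical windows the median level was 8.45% of the parent, and in the 30 members with under 10% it was 1.09%. RPS14P1 stood at 11.2% of RPS14 with 12.04% identical windows.

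The first comparison asked which members differ between the lines under vehicle. TCam-2 had more reads than NTera2 for 38 members and fewer for 7, of 103 tested (edgeR quasi-likelihood test, Benjamini-Hochberg adjusted p under 0.05 over all 16816 genes). Of all genes tested 76.2% were called in this comparison, 37.4% higher and 38.8% lower in TCam-2, against 43.69% of the members. The shortfall was mainly in members called lower. Without the filter on low counts, 45 members and 45.5% of 34636 genes were called, so the size of the shortfall depended on the filter. The median log2 fold change of the members was 0.28, against -0.01 over all genes tested. In 28 members the 4 libraries of one line did not overlap those of the other, against 70% of all genes tested. DESeq2 called 30 members higher and 9 lower, where it called 55.1% of 26577 genes, 25.4% higher and 29.7% lower. In 19 members the reads of the lower line, if doubled, would not reach the summed count of 1000, so they are members only through the line where they are higher. Of these, 8 were among the 45 called: RPS14P1 and RPL7P20 (lower in TCam-2), and RPL23AP49, RPL8P3, RPS3AP20, RPL37P11, RPS3AP36 and RPS3AP47 (higher). Their differences were in part chosen by the threshold and are given as descriptions. Leaving out each vehicle library in turn gave 33 to 52 calls, given without the share of all genes called in those fits.

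Summed over the members, the level under vehicle was 792.5, 842.7, 1131 and 915.2 CPM in NTera2 and 920.4, 1097, 908.2 and 1119 CPM in TCam-2. The means were 920.3 ± 149.1 CPM (SD, n = 4) and 1011 ± 112.6 CPM (SD, n = 4), a ratio of 1.10, and the groups overlapped. As a share of total counts without scaling the ratio was 0.994. Without RPS2P5 it was 1.17.

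The 2 largest departures were members with almost all reads in NTera2. RPS14P1, a copy of the small-subunit gene RPS14, was at 17.2, 13.8, 17.4 and 17.6 CPM in NTera2 vehicle and at 0.702, 0.458, 0.314 and 0.215 CPM in TCam-2 vehicle. Every NTera2 library lay far above every TCam-2 library, and the same held in the other 6 groups, where NTera2 stayed between 14.3 and 21.7 CPM and TCam-2 between 0.0691 and 0.706 CPM. The log2 fold change was -5.26 ± 0.26 (SE), while RPS14 moved the other way, by 0.46 ± 0.07. TCam-2 contributed 1.51% of the reads of RPS14P1, whose place among the members therefore rests on NTera2, and the size of the fold rests on few TCam-2 reads. The locus (chr1:206695837-206696269, minus strand) lies inside the span of MAPKAPK2, a kinase gene on the opposite strand, at 124.9 CPM in NTera2 against 146.5 CPM in TCam-2.

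RPL7P20, a copy of the large-subunit gene RPL7 on chromosome 5, was at 4.70, 4.38, 3.69 and 3.96 CPM in NTera2 vehicle. In TCam-2 vehicle it was at 0.312, 0.366, 0.314 and 0.287 CPM. The groups did not overlap, with a log2 fold change of -3.67 ± 0.31 (SE) against 0.45 ± 0.07 for RPL7. The other 4 RPL7 copies were at 0.40 to 1.10, on the parent's side. RPL7P20 also passed the count threshold on its NTera2 reads, and TCam-2 gave 4.96% of its 1290 reads. RPS14P1 and RPL7P20 were the 2 members with at least 90% of their reads from 1 line.

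RPL23AP49 had the largest difference in the other direction. It was at 0.710, 1.09, 1.02 and 0.887 CPM in NTera2 vehicle and at 5.30, 6.14, 5.64 and 7.54 CPM in TCam-2 vehicle, with no overlap. Its log2 fold change was 2.75 ± 0.25 (SE), against 0.49 ± 0.08 for RPL23A. NTera2 gave 242 of its 1848 reads, so it passed the count threshold on its TCam-2 reads. Only 45.6% of its annotated transcript aligned to the parent, and it shares its position with 7 other annotated genes, FRG2C the highest of them in TCam-2 at 0.417 CPM.

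RPL22P2 and RPL8P3 were also among the most different members, and their parents moved with them. RPL22P2 was at 1.73 ± 0.33 CPM (SD, n = 4) in NTera2 and 6.363 ± 1.499 CPM (SD, n = 4) in TCam-2 vehicle, a log2 fold change of 1.91, and RPL22 was at 1.33. RPL8P3 was at 1.66 and RPL8 at 1.31. RPS3AP20 (1.55), RPS3AP36 (1.42), RPL37P11 (1.35), RPS3AP49 (1.27) and RPL7P9 (1.10) completed the 8 largest increases.

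RPL36AP37, whose sequence is that of RPL36A, was lower in TCam-2 as RPL36A was. It was at 15.7, 14.99, 24.3 and 18.1 CPM in NTera2 vehicle and at 4.601, 4.945, 5.57 and 5.17 CPM in TCam-2 vehicle. The log2 fold change was -1.83 ± 0.18 (SE, edgeR adjusted p = 7.57e-08), against -1.95 ± 0.23 for RPL36A. The locus (chr11:16974693-16975013) lies inside PLEKHA7, a cell junction gene on the same strand, which was at 19.6 CPM in NTera2 against 90.4 CPM in TCam-2, the opposite direction. RPS2P55 (-0.75), RPL6P10 (-0.69), RPL32P3 (-0.37) and RPS2P5 (-0.32 ± 0.11 SE, edgeR adjusted p = 0.0148) were the remaining members called lower. RPS2P5 had an adjusted p of 0.0524 without NTera2 vehicle replicate 2, and RPL32P3 was past the threshold in only 3 of the 8 fits that left out a vehicle library, with adjusted p up to 0.111.

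**Figure D2:**
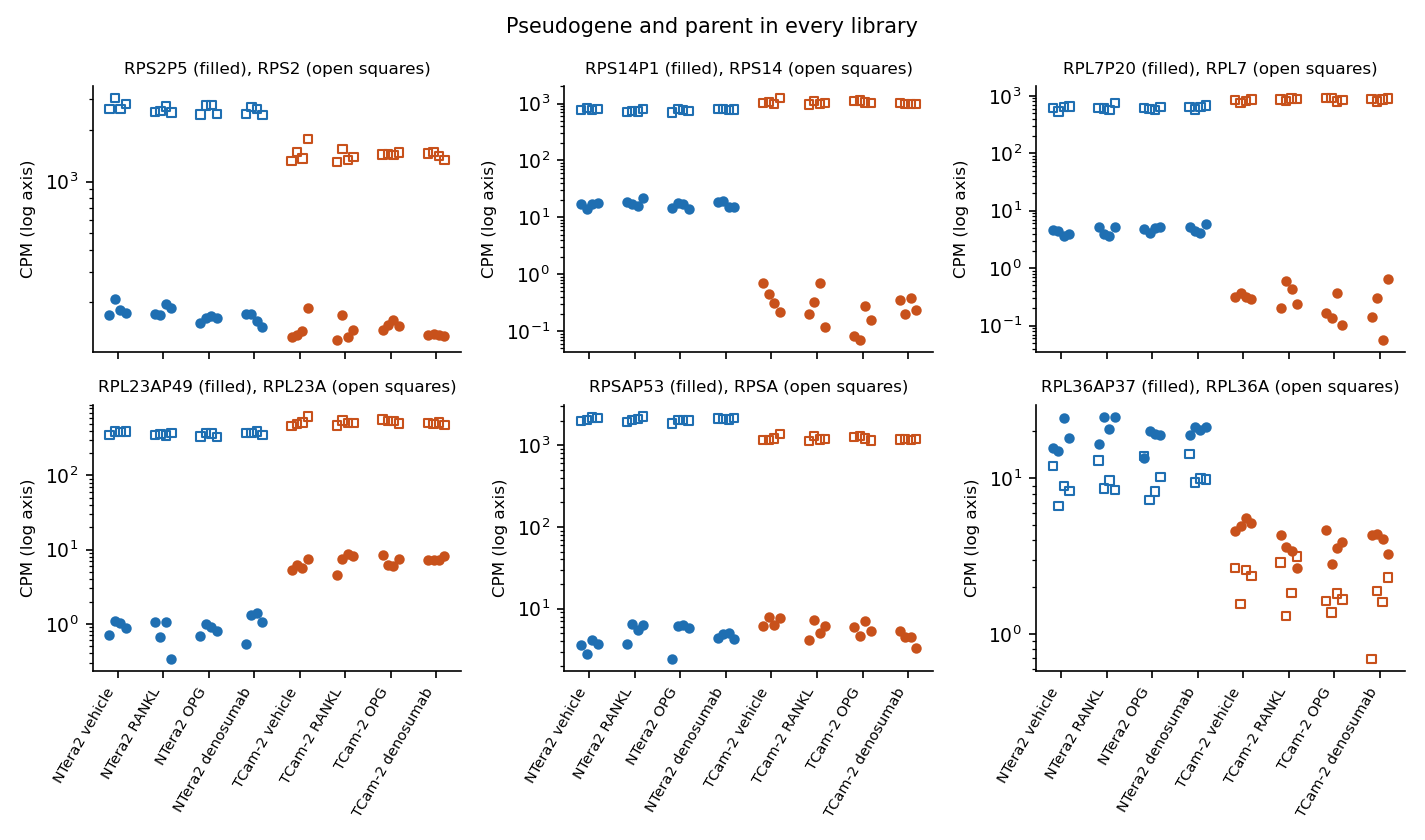
CPM (log axes) of 6 pseudogenes (filled circles) and their parents (open squares) in each of the 32 libraries, by group, with NTera2 in blue and TCam-2 in orange. RPS14P1, RPL7P20 and RPL23AP49 separate the lines by far more than their parents do. RPL36AP37 follows RPL36A, whose reads cannot be told from its own by sequence alone.

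Families differed in whether their members lay on the parent's side. Of 24 families with more than 1 member, 13 had a median log2 fold change of the parent's sign and 11 of the other sign. All 10 copies of RPS2 were lower in TCam-2 by estimate, from -0.75 to -0.23, with 2 called, and RPS2 was at -0.89 ± 0.09 (SE). All 8 copies of RPS3A were called higher, from 0.64 (RPS3AP26) to 1.55 (RPS3AP20), and RPS3A was at 0.64 ± 0.08 (SE). None of the 7 copies of RPSA fell as far by estimate as RPSA (-0.75 ± 0.07 SE), with 3 below 0 and 4 above. Their estimates ran from -0.27 to 0.98 with a median of 0.00, and RPSAP53 was called higher. The 4 copies of RPL3 had estimates from 0.12 to 0.87, with 2 called higher, and RPL3 was at -0.11. The 4 copies of RPL13A ran from -0.14 to 0.65, with RPL13AP20 called higher, and RPL13A was at -0.27.

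Over the 103 members, Spearman's rho between the log2 fold change of a member and of its parent was 0.766 and Pearson's r was 0.439, a description across genes measured in the same 8 libraries. The signs matched in 61 members. Of the 45 members called, 30 had a parent called the same way, 5 a parent called the other way and 10 a parent not called. Among the ribosomal protein genes themselves, of which 85 were tested, 28 were called higher and 33 lower in TCam-2, with a median of -0.04. The list was chosen with earlier results of these data known.

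**Figure D3:**
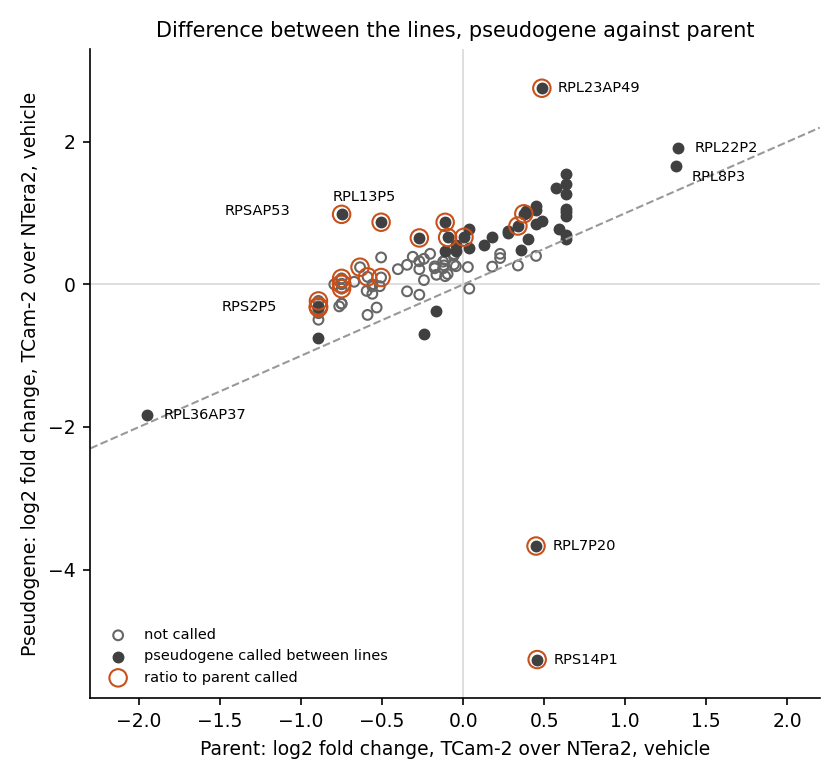
Each point is a pseudogene, with the log2 fold change of its parent between TCam-2 and NTera2 under vehicle on the horizontal axis and its own on the vertical axis. Filled points were called between the lines, orange rings mark a called difference in the ratio to the parent, and the dashed line is equality. Most points lie above the dashed line, and RPS14P1 and RPL7P20 lie far below it.

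The second comparison put each member over its parent within a library and tested that log2 ratio between the lines. The ratio was higher in TCam-2 for 20 member pairs and lower for 2 (limma, adjusted p under 0.05 over 420 pairs of a pseudogene and its parent). Of all 420 pairs 21.2% were called, 12.9% higher and 8.33% lower. Of the member pairs 21.36% were called, so members were called about as often as all pairs. The estimate was above 0 in 95 of 103 members, with a median of 0.51, and in 329 of all 420 pairs, with a median of 0.48. The 317 pairs that were not members had a median of 0.41. The count of member pairs called depended on single libraries, with 63 without NTera2 vehicle replicate 3, 10 without NTera2 vehicle replicate 1 and 12 without NTera2 vehicle replicate 2. With the replicate number as a block it was 14. When both genes needed at least 1000 counts it was 39. These counts are given without the share of all pairs called in the same setting, so they are not a result about the members.

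The ratio fell for RPS14P1 (-5.70 ± 0.33 SE) and RPL7P20 (-3.98 ± 0.29 SE), both members through their NTera2 reads. It rose most for RPL23AP49 (2.24 ± 0.24 SE), RPSAP53 (1.73 ± 0.20 SE), RPL13P5 (1.38 ± 0.20 SE), RPL3P1 (1.04 ± 0.30 SE) and RPL13AP20 (0.95 ± 0.25 SE). RPL3P1 was no longer called without NTera2 vehicle replicate 1, 2 or 4, with limma adjusted p from 0.0562 to 0.079.

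RPSAP53 and RPL13P5 rose while their parents fell. RPSA encodes a small-subunit protein also known as the laminin receptor. RPSAP53, its copy on chromosome 13, was at 3.60, 2.83, 4.16 and 3.72 CPM in NTera2 vehicle and at 6.08, 7.97, 6.27 and 7.61 CPM in TCam-2 vehicle, with no overlap. RPSA fell from 2076 to 1219 CPM on average. RPL13P5 on chromosome 12 was at 10.2, 12.3, 12.3 and 13.7 CPM in NTera2 vehicle and at 23.2, 17.95, 27.0 and 19.6 CPM in TCam-2 vehicle, with no overlap. Its log2 fold change was 0.87 ± 0.14 (SE), against -0.51 ± 0.11 for RPL13. Its span overlaps LRRC23 on the same strand (5.17 CPM in NTera2, 9.23 CPM in TCam-2) and SPSB2 on the opposite strand (40.6 CPM in NTera2, 321 CPM in TCam-2), and their part in the difference was not tested.

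RPS2P5 fell less than RPS2. Its ratio to RPS2 was higher in TCam-2 by 0.57 ± 0.09 (SE, limma adjusted p = 0.000179), and so were those of RPS2P46 (0.58), RPS2P17 (0.60) and RPS2P40 (0.62). The median over all 420 pairs was also above 0, at 0.48, so a rise as such was not particular to these copies. RPSAP12 (0.73), RPSAP61 (0.79), RPSAP54 (0.86) and RPSAP5 (0.79) had higher ratios to RPSA. RPL36AP37 and RPL36A kept their ratio within the error, at 0.13 ± 0.23 (SE, limma adjusted p = 0.663). All windows of RPL36AP37 occur in RPL36A, so sequence alone cannot tell their reads apart. This ratio therefore does not show how the copy itself moved.

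Among libraries of the same group, most members rose and fell together. The reads of the 103 members per 1000 reads of their 48 parents were 17.99, 17.47, 24.4 and 19.3 in NTera2 vehicle and 22.4, 25.9, 21.5 and 22.4 in TCam-2 vehicle. NTera2 vehicle replicate 3 stood above the other 3. NTera2 RANKL replicate 1 (16.38) and OPG replicate 1 (16.37), both of passage 27, stood below the other libraries of their groups, which were at 22.3 to 23.5. NTera2 vehicle and denosumab replicates of the same passage were at 17.99 and 20.5.

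The correlation of a member's deviations from its group means with the median deviation of the other members had a median of 0.743 over the 103 members, was over 0.5 in 83 and reached 0.950 in RPL4P4. It was at or under 0.2 in 12, among them RPL13P8 (-0.21), RPL7P20 (-0.12), RPL6P10 (-0.02), RPL32P3 (0.02), RPL5P34 (0.03), RPL23AP49 (0.05) and RPL13P5 (0.125), and it was 0.21 in RPS14P1 and 0.35 in RPS2P5. Of the 7 members named above for their ratio to the parent, RPSAP53 (0.89), RPL3P1 (0.92) and RPL13AP20 (0.77) followed the common movement. These correlations are over 32 libraries and are descriptions.

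Pseudogenes outside the 103 followed the order of libraries to different degrees. Across the 16 libraries of a line, the members' reads per 1000 parent reads correlated with the summed CPM of the ribosomal protein pseudogenes under the threshold (Pearson's r = 0.982 in NTera2 and 0.938 in TCam-2, Spearman's rho = 0.979 and 0.915). They correlated as well with that of the 24 pseudogenes of the translation factor gene EEF1A1 (r = 0.982 and 0.906, rho = 0.953 and 0.924). Without the 2 libraries farthest from the median, r with EEF1A1 pseudogenes was 0.972 and 0.844. With the summed CPM of the 101 pseudogenes of other genes with a named parent and at least 1000 counts, EEF1A1 copies among them, r was 0.6 and 0.407 (rho = 0.544 and 0.521). With the summed CPM of the parents r was 0.127 and -0.151, with total counts -0.556 and -0.341, and with the RNA integrity number -0.199 (15 libraries) and -0.124. What sets the common level was not tested.

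**Figure D4:**
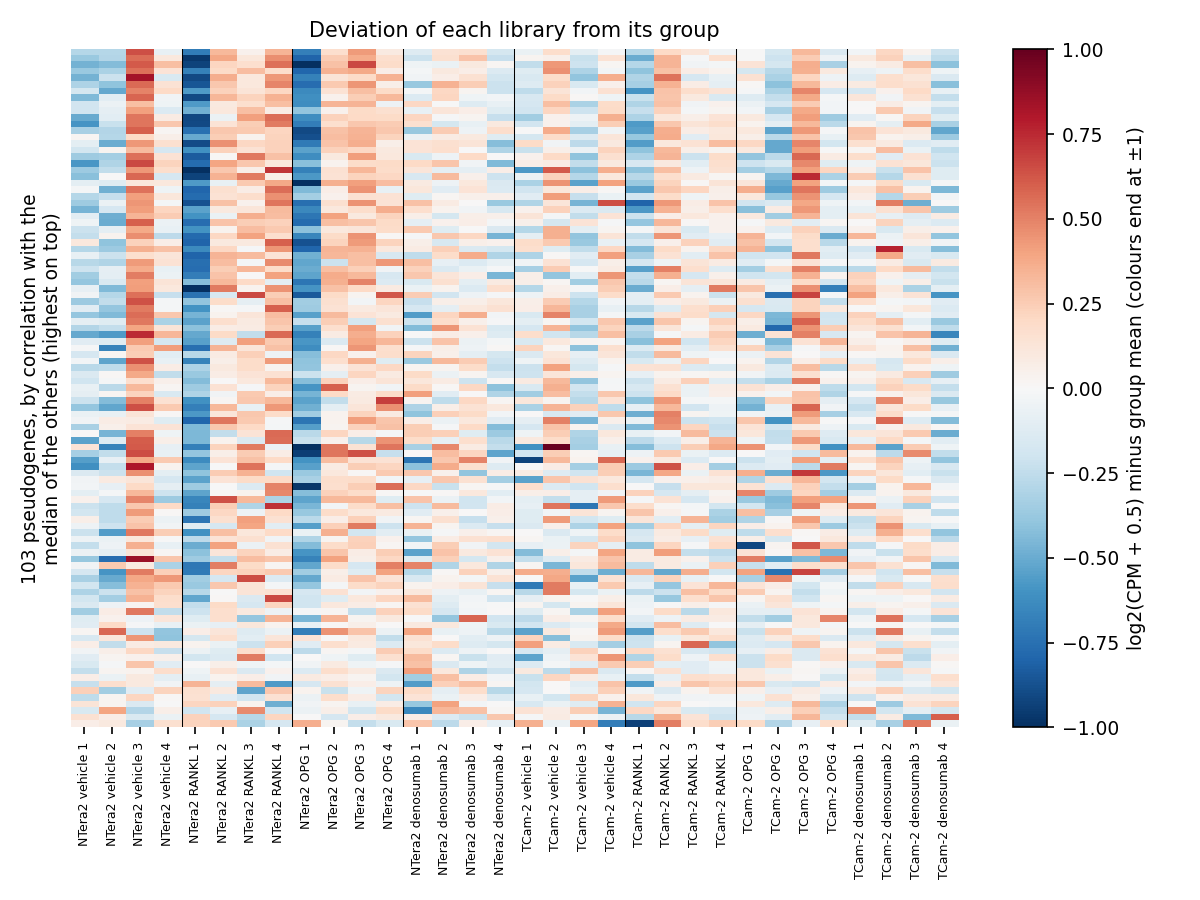
Deviation of log2(CPM + 0.5) from the group mean for the 103 pseudogenes (lines of the map, ordered by their correlation with the median of the others) in the 32 libraries (columns). Colours end at ±1. NTera2 vehicle 3 is red, and NTera2 RANKL 1 and OPG 1 are blue, over most of the map but not in its lowest lines.

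The treatment comparisons asked whether RANKL, OPG or denosumab changed the members. No member was called in any of the 3 comparisons in NTera2 or the 3 in TCam-2, nor in the 3 interactions of line and treatment (edgeR, adjusted p under 0.05), and none of the genes tested was, 0% in each. DESeq2 called 3 members lower in TCam-2 with OPG, RPS15P4, RPL7P9 and RPL4P4 (adjusted p = 0.0196 to 0.0292), where it called 6 of 17601 genes (0.0341%), and no member in the other 8 comparisons. Without the filter on low counts, edgeR called 3 members with RANKL, 8 with OPG and 2 with denosumab in TCam-2, all lower, where it called 0.144%, 0.152% and 0.0789% of 35493 genes. It then also called RPS15P4 in the interaction with OPG (0.00745% of 40267 genes) and RPS27AP16 in that with denosumab (0.0795%). The 3 comparisons of a line share their 4 vehicle libraries, so they are not independent of each other.

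In TCam-2 the members leaned downward. RPS14P1 and RPL7P20 did not pass the filter on low counts in that line. Of the 101 tested, 92 lay below vehicle by estimate with RANKL, 92 with OPG and 92 with denosumab. Of all genes tested, 51.36%, 51.33% and 51.45% did so. Most members rose and fell together among libraries, so counts of members are not over independent genes. This holds for NTera2 and the interactions as well. The median log2 fold changes of the members were -0.31, -0.46 and -0.30. The medians over all genes tested were -0.01 in each. At an unadjusted p under 0.05 there were 25 members with RANKL, where 8.92% of all genes passed, 51 with OPG, where 8.68% passed, and 23 with denosumab, where 6.56% passed. All of these were lower than vehicle except 1 with OPG. All 4 treated libraries lay below all 4 vehicle libraries in 8 of 101 members with RANKL, 14 with OPG and 10 with denosumab, against 1.05%, 1.35% and 1.14% of all genes tested. They lay above all 4 vehicle libraries in 1 member with OPG (1.62% of all genes) and in 0 with RANKL (1.77%) or denosumab (2.22%). None of the 48 parents lay wholly below or above vehicle under any of the 3, but the parents also leaned downward with 2 of them. Their estimates were negative in 42 of 48 with RANKL, 21 with OPG and 45 with denosumab, and 3, 0 and 16 of them had an unadjusted p under 0.05.

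The summed level of the members in TCam-2 was 1011 ± 112.6 CPM with vehicle, 867.3 ± 98.1 with RANKL, 817.3 ± 79.1 with OPG and 866.8 ± 53.8 with denosumab (SD, n = 4 each). Per 1000 parent reads it was 23.1 ± 1.95 with vehicle, 20.3 ± 1.49 with RANKL, 18.3 ± 2.26 with OPG and 20.7 ± 1.02 with denosumab (SD, n = 4 each). TCam-2 OPG replicates 1, 2 and 4 were at 17.65, 15.98 and 18.0, below all vehicle libraries, and OPG replicate 3 at 21.4 lay just below the lowest vehicle library at 21.5. EEF1A1 pseudogenes were at 84.7 ± 4.8 CPM with vehicle and 63.4 ± 14.0 CPM with OPG (SD, n = 4 each). The 101 pseudogenes of other genes were at 987.3 ± 31.6 CPM with vehicle and 973.1 ± 40.8 CPM with OPG (SD, n = 4 each). The parents had a median log2 fold change of 0.01 with OPG, -0.08 with RANKL and -0.12 with denosumab.

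The counts at an unadjusted p rested on single libraries, and with a library left out they are given without the share of all genes. Without TCam-2 vehicle replicate 2 they were 12 with RANKL and 9 with denosumab. Without TCam-2 RANKL replicate 1 the RANKL count was 15. Without denosumab replicate 4 or vehicle replicate 4 the denosumab count was 13 or 12. For OPG they stayed between 37 and 56. Without the 2 RANKL libraries of low RNA integrity the RANKL count was 30, with a median of -0.47.

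The member with the smallest p in TCam-2 was RPS15P4, a copy of the small-subunit gene RPS15 on chromosome 2. It was at 27.1, 34.8, 26.6 and 30.7 CPM with vehicle and at 17.2, 12.7, 21.4 and 18.0 CPM with OPG. The groups did not overlap, and the log2 fold change was -0.82 ± 0.16 (SE, edgeR unadjusted p = 4.08e-05, adjusted p = 0.253). With RANKL it was at 16.1, 26.0, 21.5 and 19.2 CPM, and with denosumab at 26.7, 28.4, 27.9 and 18.7 CPM. For RANKL the smallest p was that of RPL7P9 (-0.72 ± 0.18 SE, edgeR adjusted p = 0.557). For denosumab it was that of RPS27AP16, a copy of the gene for a ubiquitin fusion protein (-0.71 ± 0.18 SE, edgeR adjusted p = 0.731).

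In NTera2 the estimates leaned upward and were small. Of 103 members, 76 lay above vehicle with RANKL, 69 with OPG and 85 with denosumab, with medians of 0.13, 0.06 and 0.19. Of all genes tested, 53.04%, 51.31% and 53.01% lay above vehicle. Of the 48 parents, 23 did with RANKL, 3 with OPG and 34 with denosumab, with medians of -0.002, -0.08 and 0.02. Among these parents, 6, 12 and 4 had an unadjusted p under 0.05 (edgeR). All 4 treated libraries lay below all 4 vehicle libraries in 1 member with RANKL, 2 with OPG and 1 with denosumab, against 2.64%, 1.25% and 2.36% of all genes tested, and above them in 1 member, with denosumab (1.14%). At an unadjusted p under 0.05 there were 3 members with RANKL (10.3% of all genes), 2 with OPG (1.68%) and 3 with denosumab (7.25%). With a library left out, counts are given without the share of all genes in that fit. The RANKL count was 27 without NTera2 RANKL replicate 1, and it was 16 without vehicle replicate 3, when the denosumab count was 17. It was 7 without RANKL replicate 3. The OPG count was 0 without vehicle replicate 2, 6 without vehicle replicate 3, 7 without OPG replicate 1 and 1 without any other OPG library. The denosumab count was 0 without vehicle replicate 2 or denosumab replicate 3 and 1 without denosumab replicate 4. The smallest p was that of RPL5P34 with RANKL (0.53 ± 0.20 SE, edgeR adjusted p = 0.405) and with denosumab (0.47 ± 0.20 SE, edgeR adjusted p = 0.605), and of RPS2P5 with OPG (-0.16 ± 0.07 SE, edgeR adjusted p = 1.00).

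**Figure D5:**
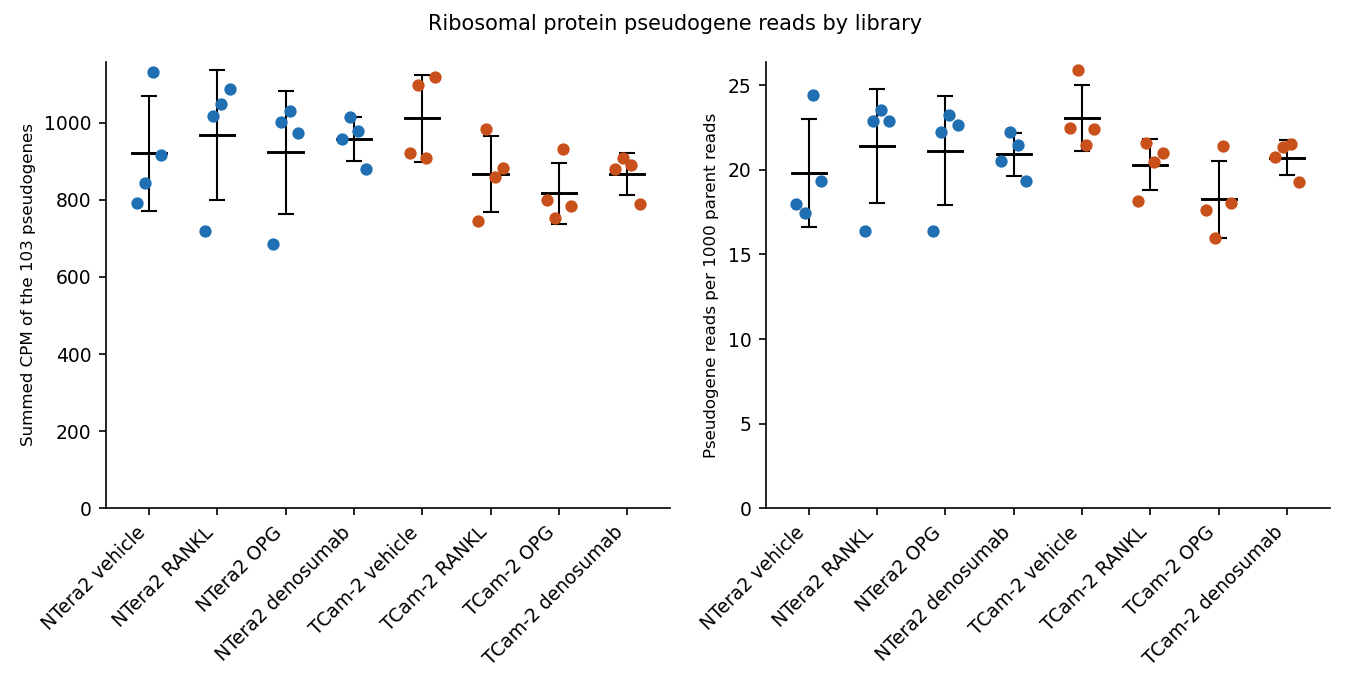
Summed CPM of the 103 pseudogenes (left) and their reads per 1000 reads of their parents (right) in each library, with the mean and SD of each group (black, n = 4), NTera2 in blue and TCam-2 in orange. In TCam-2 the vehicle libraries (21.5 to 25.9 per 1000 parent reads) lie above most treated libraries, and in NTera2 the groups overlap.

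The difference between the lines in each treatment effect was tested as an interaction. At an unadjusted p under 0.05 there were 17 members for RANKL (5.22% of all genes), 23 for OPG (5.2%) and 20 for denosumab (4.78%), and all of them were lower in TCam-2 relative to NTera2. The medians were -0.39, -0.54 and -0.41, against 0.04, 0.01 and 0.04 over all 19216 genes tested. For the 48 parents the medians were -0.03, 0.11 and -0.08, with 13, 44 and 3 estimates above 0. Among these parents, 0, 6 and 2 had an unadjusted p under 0.05 (edgeR). No interaction was called, and the smallest adjusted p of a member was 0.613 (edgeR). It belonged to RPL3P1 with OPG (-1.59 ± 0.44 SE). The smallest p for RANKL was that of RPL36AP37 (-0.82 ± 0.25 SE, edgeR adjusted p = 0.903) and for denosumab that of RPS27AP16 (-1.03 ± 0.31 SE, edgeR adjusted p = 0.950). The counts of members at an unadjusted p rested on single libraries. With a library left out they are given without the share of all genes. Without NTera2 vehicle replicate 3 they were 33, 46 and 33. The RANKL count was 43 without NTera2 RANKL replicate 1, 6 without TCam-2 vehicle replicate 2, and 7 to 10 without NTera2 vehicle replicate 1 or 2 or RANKL replicate 3 or 4. The OPG count was 46 without NTera2 OPG replicate 1, 36 without TCam-2 OPG replicate 3 and 15 without NTera2 vehicle replicate 2. The denosumab count was 8 to 13 without NTera2 vehicle replicate 1, 2 or 4, TCam-2 vehicle replicate 2 or 4, or TCam-2 denosumab replicate 4.

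By position, 49 of the 103 members overlapped another gene that is not a ribosomal protein pseudogene, 19 of them on the same strand. RPS2P5 lies inside TAOK3, a kinase gene on the opposite strand, at 6.01 CPM in NTera2 against 15.5 CPM in TCam-2, far under RPS2P5 itself at 170.1 and 138.9 CPM. RPL18AP3 lies on the same strand inside TXNRD1, the gene for a thioredoxin reductase, at 173.3 and 203.5 CPM against 32.4 and 36.9 CPM for RPL18AP3. RPLP0P6 lies opposite LINC02613 (0.0388 and 0.175 CPM), RPL4P4 opposite MAP3K13 (15.8 and 10.7 CPM) and RPS7P1 opposite an unnamed gene (0.0329 and 0.0501 CPM). The levels of these other genes are their own assigned reads over all libraries of a line.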

How the data were processed

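Polyadenylated RNA of 32 libraries was measured. Libraries were stranded and read as paired 52-base reads, per the labels' protocols. Per the submitters' processing notes, the authors used bcl2fastq 2.20.0, STAR 2.7.9a and featureCounts 1.6.2 with GRCh38/hg38. The deposited values are raw read counts per gene, with a gene length, start and end in other columns. The annotation release, the strand setting and the treatment of reads with several placements are not given in the sources used here.

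The members and gene lists were chosen with earlier results of these data known. Genes were named by a rule: the 15 members of highest mean level, the 8 largest called differences between lines in each direction, the smallest p where no treatment call was made, the 5 highest and 5 lowest against the parent, the 5 largest called ratios in each direction, 3 members and 3 other pseudogenes at the threshold, and the 5 highest members that overlap another gene. Other members named within a family, by shared sequence or by correlation were chosen after their values were seen.

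Counts were tested with edgeR 4.0.16 under R 4.3.3, using its filter for low counts, TMM factors, its robust quasi-likelihood test, and p-values adjusted by Benjamini-Hochberg over all genes tested. The 8 vehicle libraries were fitted for the line comparison, the 16 libraries of a line for treatments and all 32 for interactions. The SE of a log2 fold change is its size over the square root of F. The log2 ratio of a pseudogene to its parent (prior count 0.5) was tested with limma 3.58.1 over all 420 pairs that passed the count filter. CPM used TMM over 32 libraries. Alternatives were DESeq2 1.42.0, RLE factors, no filter, a replicate block, other prior counts and thresholds, and leaving out libraries. The edgeR line comparison, the edgeR comparison of TCam-2 OPG with vehicle and the limma ratio test were tried on simulated data. The other comparisons and the alternatives were not. Sequences were compared with GENCODE v29 transcripts, by local alignment of the pseudogene to the parent and by exact 52-base windows. Identity therefore covers the aligned part only, which was 31.2% of the transcript in RPLP0P2 and 44.2% in RPL13P5. In GENCODE v29, 99 of the 103 members have the same coordinates.

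Replicates differed by more than counting noise (chi-square per degree of freedom 2.7 to 19.6 over 48 pairs). Per the labels, same-numbered libraries of a line share a passage, and their deviations correlated by -0.02 to 0.39 (median 0.11) in NTera2 and -0.13 to 0.26 (median 0.10) in TCam-2. Between lines a number pairs nothing but its order. There were 0 columns of other samples. RPS19BP1 and genes on the Y chromosome were left out of the ribosomal protein gene values. Some members' comparisons with their parents, and some sequences, are not reported here.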

Additional observations from a re-analysis of the deposited data

Results flagged for a closer look

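In 8 of 120 groups of 4 libraries examined, 1 library stood apart from the other 3 by more than Dixon's limit. They covered the summed level, the level per 1000 parent reads and 13 members, and chance gives about 1 in 20. NTera2 RANKL replicate 1 stood low in members' reads per 1000 parent reads (16.38). NTera2 OPG replicate 1 stood low in that measure (16.37), in the summed level (686.3 CPM) and in RPSAP53 (2.44 CPM). NTera2 vehicle replicate 3 stood high in RPL3P1 (5.19 CPM), and vehicle replicate 2 stood low in RPS14P1 (13.77 CPM). NTera2 RANKL replicate 3 stood high in RPS27AP16 (25.3 CPM), and TCam-2 denosumab replicate 4 stood high in RPL23AP49 (8.21 CPM).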

How the results depend on the processing

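Alternatives were compared for members called between lines, in each treatment and interaction, and in the ratio to the parent. The 45 line calls were 45 with RLE factors, with no filter and with the replicate block, 39 with DESeq2, and 33 to 52 when a library was left out. Treatment and interaction calls stayed at 0 with RLE factors, with the replicate block, without the libraries of low RNA integrity and with every library left out in turn (0 to 0). Without a filter, edgeR called 3 members with RANKL, 8 with OPG and 2 with denosumab in TCam-2, and 1 each in the interactions with OPG and denosumab, all lower, where it called 51, 54, 28, 3 and 32 genes in all. DESeq2 called 3 with OPG in TCam-2. The cause was not tested. The 22 ratio calls were 31 with a prior count of 2, 39 with at least 1000 counts for both genes and 14 with the replicate block. They were 10 to 63 when a library was left out. The shares of all genes called between lines without a filter and with DESeq2 are given above. The line and ratio counts of the other alternatives are given here without the share of all genes or pairs called. The summed level of TCam-2 over NTera2 was 1.10, and 0.994 to 1.17 under other scalings and thresholds, or 1.05 to 1.19 when a library was left out. The level per length was 2.46% of the parent at the median, or 0.888% with transcript lengths. The median fold change of members with OPG in NTera2 (0.06) turned to -0.016 without vehicle replicate 1, to -0.0015 without vehicle replicate 2 and to -0.0027 without OPG replicate 3, and was 0.21 without OPG replicate 1.

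Single reads from windows in common with the parent cannot be told from parental reads by those bases alone. Members with many such windows are therefore less surely counted apart from the parent, and members near 2 CPM rest on few reads per library.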
